A study of Saccharomyces cerevisiae with 6 samples.

Results

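The genes described here encode the enzymes that copy the nuclear genome of Saccharomyces cerevisiae. They are the subunits of DNA polymerase alpha and its primase (POL1, POL12, PRI1, PRI2), of DNA polymerase delta (POL3, POL31) and epsilon (POL2, DPB2), and the sliding clamp PCNA (POL30). A gene was kept when a probe carried its symbol and had a value on at least 2 of the 6 arrays. Of the 9 genes, 6 met this rule, out of 670 features in all that were valued on at least 2 arrays. POL1, POL2, POL12, POL30 and PRI2 were valued on all 6 arrays and PRI1 on 2. POL1, POL2 and PRI2 rest on 1 valued probe each, without a second probe as a check, and POL12 and POL30 on 2. POL3, DPB2 and POL31 have 4, 2 and 2 probes on the platform, none of which had a value, so polymerase delta is not described here and polymerase epsilon is described by 1 subunit.

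Primase and polymerase alpha lay down a short RNA-DNA primer at origins and on every Okazaki fragment. Polymerase epsilon then extends the leading strand and polymerase delta the lagging strand, held on the template by the PCNA ring. All of these subunits are essential in budding yeast. DAmP alleles (DamP in the labels) were made for essential genes, and in them a resistance cassette behind the coding sequence gives the mRNA an abnormally long 3' end. Such extended mRNAs are known targets of nonsense-mediated decay, the cytoplasmic pathway that needs the helicase Upf1 and its partner Upf2.

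The 3 pools, of 2 arrays each, were mixtures of haploid DAmP strains of BY4742/BY4741 origin. One carried a deletion of NMD2 (UPF2), one a deletion of NAM7 (UPF1) and one a deletion of YEL068C, which the series text names as the reference population. All pools came from a cross by the GIM protocol and were grown for 18 generations in the presence of G418 and nourseothricin (nurseothricin in the labels), so DAmP allele, growth and selection were common to all groups. The strain's barcode was amplified from RNA (Cy3) and from the genomic DNA of another aliquot (Cy5), and both were hybridised to one array. The second array of a pool is a technical repeat that began with the cell material, so errors and p-values describe the spread between arrays of 1 cross per deletion. An array had a value for 658 to 798 probes, and the arrays numbered 2 had more (749 to 798) than those numbered 1 (658 to 666). The probes for NMD2, NAM7 and YEL068C had no value and gave no check of the deletions. Of the 9 genes, 0 lie on a chromosome that carries one of the deleted genes.

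Values are log2 ratios of RNA barcode to DNA barcode, centred on the array median over the 444 features valued on all 6 arrays. A value of 0 is therefore the ratio of the middle feature, and every difference is relative to the other features. The labels set RNA against DNA without naming the numerator of the deposited value. In the deposited sign, 13 of 14 abundant mRNAs lay below 0 in the YEL068C pool (median -3.01), against 253 of 444 features (median -0.19). The deposited ratio is thus likely DNA over RNA, and its sign was turned. Were it the other way, each rise below would be a fall and each rank would count from the opposite end, with PRI2 at or next to the top. The series text restricts interpretation to up tags, but the tag type of a probe could not be read from the tables used here, so all probes with values were taken and some may be down tags. The base of the logarithm is not stated either and was read as 2 from the range of the values.

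The sliding clamp and the leading-strand polymerase stood at almost the same ratio in the YEL068C pool and moved apart in both mutant pools. POL30, which encodes PCNA, was at 0.75 and 0.92 on the NMD2 arrays, 0.48 and 0.58 on the NAM7 arrays and -0.26 and -0.36 on the YEL068C arrays. All 4 mutant arrays lay above the array median and both YEL068C arrays below it, with no overlap. In the mean of both mutant pools POL30 rose by 0.99 relative to the YEL068C pool (SE 0.20, n = 4 against 2 arrays, adjusted p = 0.0464 in limma), which is 1.98-fold if the base is 2. Its 2 valued probes, whose tag types are unknown, differed by 0.02 to 0.22 on any one array. Since RNA and DNA signals were available only as their ratio, more RNA and less DNA of the barcode cannot be told apart here.

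POL2 encodes the catalytic subunit of polymerase epsilon. Its ratios were -1.44 and -1.48 on the NMD2 arrays, -1.23 and -1.29 on the NAM7 arrays and -0.43 and -0.32 on the YEL068C arrays. Every mutant array lay well below both YEL068C arrays, and no difference between the 2 arrays of a pool exceeded 0.12. In the mean of both mutant pools POL2 fell by 0.99 (SE 0.19, adjusted p = 0.0454 in limma), a 1.98-fold decrease. POL30 and POL2 were the members called, 2 of 5, where 18 of 444 features passed in this comparison (4.05%), 2.7% of all features being higher and 1.35% lower. Both calls were lost when any 1 of the 6 arrays was left out. Such fits leave 1 array in a pool, and fewer of all features passed in them too. The differences stayed between 0.94 and 1.04 for POL30 and between -1.04 and -0.93 for POL2.

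**Figure D1:**
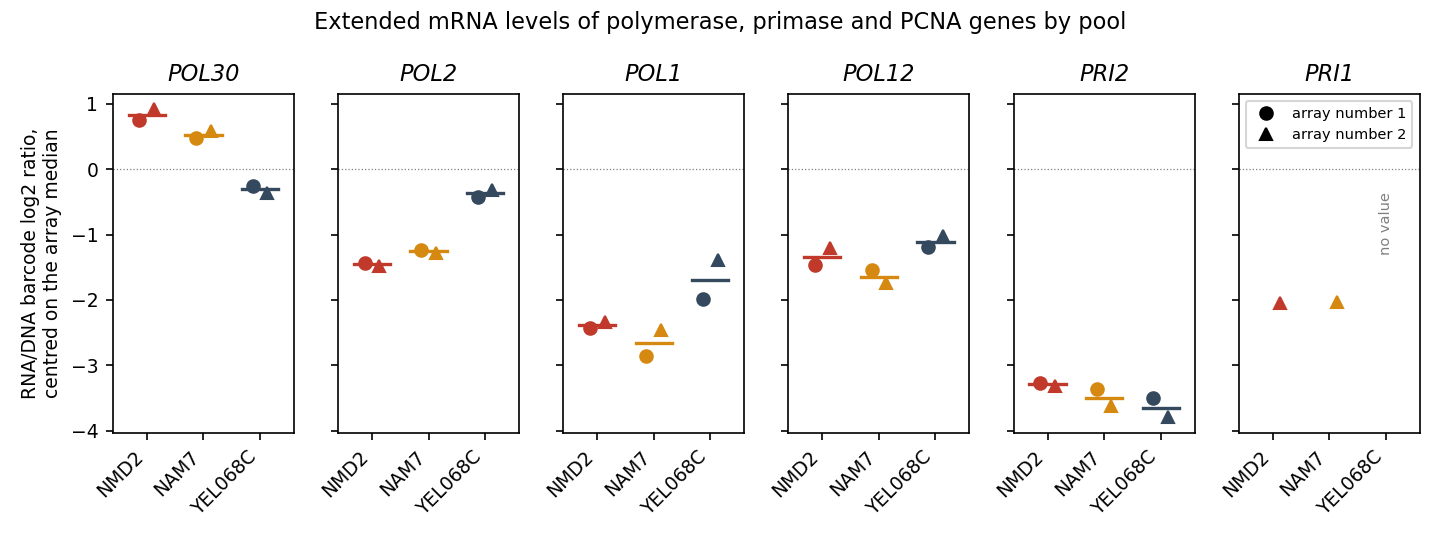
RNA/DNA barcode log2 ratio (vertical axis, centred on the array median) of each gene on the 2 arrays of the NMD2, NAM7 and YEL068C pools; circles are arrays numbered 1, triangles arrays numbered 2, horizontal bars the pool mean. POL30 lies above 0 in both mutant pools and below 0 in the YEL068C pool, POL2 and POL1 lie lower in the mutant pools, PRI2 is near the bottom of the scale in all pools, and PRI1 has a value on the arrays numbered 2 of the mutant pools alone.

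The opposite courses of the clamp and the polymerase can be read within each array, where the centring cancels. POL2 minus POL30 was -2.18 and -2.40 on the NMD2 arrays, -1.71 and -1.86 on the NAM7 arrays, and -0.17 and 0.05 on the YEL068C arrays. The mean gap was -2.04 in the mutant pools and -0.06 in the YEL068C pool, with no overlap between the arrays. An exact permutation test of 4 against 2 arrays cannot go below p = 0.133 (two-sided), and this gap was at that limit, as were those of 8 of the 10 pairs of the 5 genes (exact permutation, smallest adjusted p over the 10 pairs 0.167).

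Arrays with the same number deviated together across features, and the fit was therefore also made with the array number as a block. This lowered the median SE of the mean comparison from 0.253 to 0.124 over all features, and 266 of 444 features passed (59.9%). Of the 5 genes, 4 passed with the block, POL30 higher (as 29.7% of features were) and POL2, POL1 and POL12 lower (as 30.2% were), so the count alone does not set these genes apart. POL30 and POL2 had adjusted p = 2.76e-05 and 2.53e-05 in the blocked limma fit. With 1 array left out as well, the blocked differences ran from 0.87 to 1.11 for POL30 and from -1.07 to -0.90 for POL2. Such fits leave 1 array in a pool. Without a NAM7 array they gave each of the 5 genes the same SE of 0.17, so their calls add no support for single genes.

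The catalytic subunit of polymerase alpha, POL1, had low ratios in every pool. It was at -2.44 and -2.33 on the NMD2 arrays, -2.86 and -2.46 on the NAM7 arrays and -1.99 and -1.40 on the YEL068C arrays. The mutant arrays lay below both YEL068C arrays, but the YEL068C arrays were themselves 0.60 apart, more than the median of 0.40 over all features in that pool. The mean of both mutant pools differed from the YEL068C pool by -0.83 (SE 0.26, adjusted p = 0.104 in limma). With the block POL1 fell (SE 0.13, adjusted p = 0.000193), and it passed in each blocked fit with 1 array left out. Without the block and without YEL068C replicate 2 the difference was -0.53.

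POL12 encodes the regulatory B subunit of polymerase alpha. The ratios were -1.47 and -1.21 on the NMD2 arrays, -1.55 and -1.74 on the NAM7 arrays and -1.20 and -1.03 on the YEL068C arrays. The lowest YEL068C array and the highest NMD2 array were almost level, and the groups came close without overlapping. The mean of both mutant pools differed from the YEL068C pool by -0.38 (SE 0.21, adjusted p = 0.278 in limma). With the block POL12 fell (SE 0.13, adjusted p = 0.0225). With an array left out as well, this call was mostly lost, and the blocked difference ran from -0.48 to -0.28. Its 2 valued probes differed by 0.05 to 0.19 on any one array.

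PRI2 encodes the large, iron-sulfur-containing subunit of primase, and its extended mRNA had one of the lowest RNA/DNA ratios of all. The ratios were -3.27 and -3.32 on the NMD2 arrays, -3.36 and -3.63 on the NAM7 arrays and -3.50 and -3.80 on the YEL068C arrays. PRI2 ranked lowest of the 444 features on 1 array and next to lowest on the other 5. The groups overlapped, because a NAM7 array lay below a YEL068C array. The mean of both mutant pools differed from the YEL068C pool by 0.26 (SE 0.21, 95% interval -0.25 to 0.76, adjusted p = 0.476 in limma), and with the block adjusted p was 0.0862. In the NMD2 pool alone PRI2 passed with the block (0.36, adjusted p = 0.0466) and in 0 of the 6 blocked fits that left out an array. Quantile normalization turned the sign of the mean difference to -0.067.

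PRI1, the catalytic subunit of primase, had a value on 1 of its 2 probes, on the arrays numbered 2 of both mutant pools. Its ratio was -2.04 on the NMD2 array and -2.03 on the NAM7 array, on which PRI2 stood at -3.32 and -3.63. The mutant pools were 0.02 apart for PRI1, the NMD2 pool being lower, with 1 array each and no replicate check. Of the 653 features valued on each of these arrays, 39 lay below PRI1 on the NMD2 array and 57 on the NAM7 array. PRI1 had no value in the YEL068C pool and could not be compared with it. This pattern of missing arrays was shared by 14 features, PRI1 included, and the arrays numbered 2 had more values in general.

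The measured genes of the polymerase alpha and primase complex can be compared within each array. POL12 exceeded PRI2 by 1.80 and 2.11 on the NMD2 arrays, 1.81 and 1.89 on the NAM7 arrays and 2.31 and 2.77 on the YEL068C arrays. POL1 exceeded PRI2 by 0.83 and 0.99 on the NMD2 arrays, 0.50 and 1.16 on the NAM7 arrays and 1.51 and 2.40 on the YEL068C arrays. In both pairs all mutant arrays had the smaller gap, with POL1 nearer to PRI2 by 1.09 and POL12 by 0.64 in the mean (exact permutation p = 0.133 each, the smallest possible, two-sided, adjusted p = 0.167 over 10 pairs). Where POL1 and POL12 are compared with each other the gap was -0.97 and -1.12 on the NMD2 arrays, -1.31 and -0.73 on the NAM7 arrays, and -0.80 and -0.37 on the YEL068C arrays. Those groups overlapped (exact permutation p = 0.267, adjusted p = 0.296), although among arrays of the same number both mutant arrays had the lower value each time. Because its smallest possible p was 0.133, the exact permutation test could not decide whether these 3 gaps differed between the pools. It also took no account of the array numbers.

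The order of the genes was nearly fixed. POL12, POL1 and PRI2 followed each other downwards on all 6 arrays. POL30 was the highest on 5 arrays and lay 0.05 below POL2 on YEL068C replicate 2, so these neighbours did not differ beyond their spread in the YEL068C pool. POL2 and POL12 likewise changed places on NMD2 replicate 2 and did not differ beyond their spread in the NMD2 pool. Within the whole set, POL30 had 308 of 444 features below it with NMD2 deleted, 282 with NAM7 deleted and 188 with YEL068C deleted. For POL2 these counts were 48, 75 and 185, and for POL1 4, 3 and 34. The ratio is taken on the barcode and not on the gene body, but differences in amplification between barcodes were not analysed here, so ranks between genes are a description.

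**Figure D2:**
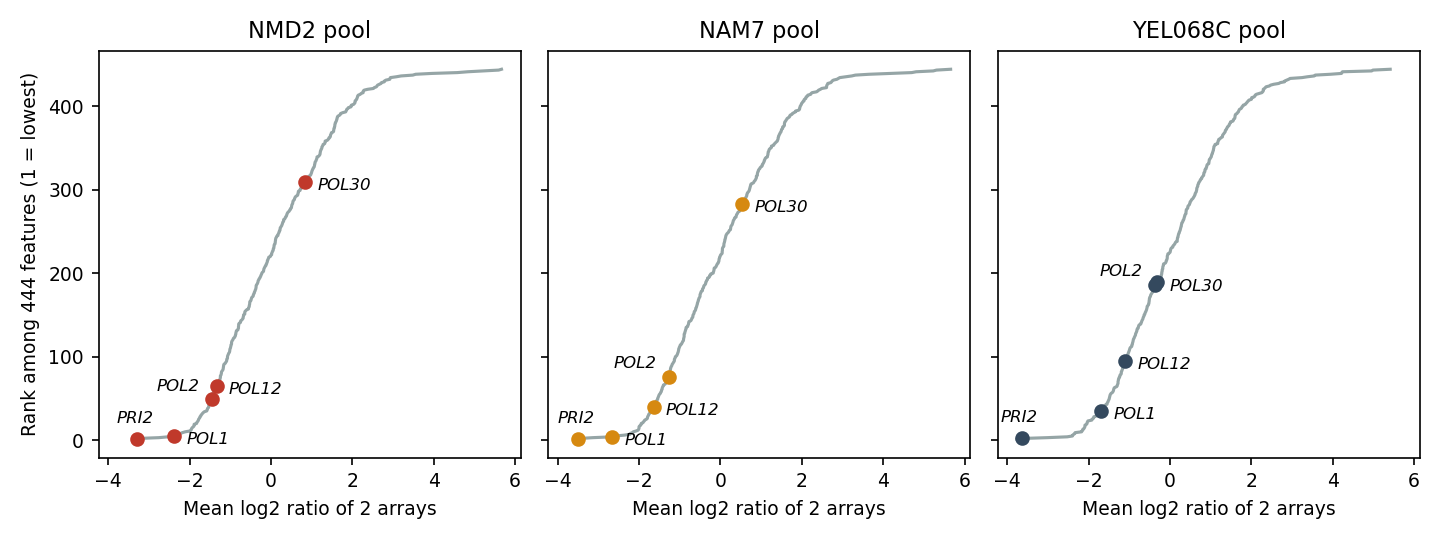
Rank of every feature (vertical axis, 1 is the lowest of 444) against its mean log2 RNA/DNA ratio over the 2 arrays of a pool (horizontal axis), for the NMD2, NAM7 and YEL068C pools; the grey line is all features and points are the polymerase, primase and PCNA genes. POL2 and POL30 lie together in the YEL068C pool and far apart in the mutant pools, while PRI2 stays at the foot of the curve.

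With each deletion taken alone, the POL30 difference from the YEL068C pool was 1.14 for NMD2 (95% interval 0.60 to 1.69) and 0.84 for NAM7. The POL2 difference was -1.09 for NMD2 and -0.89 for NAM7. POL1 differed by -0.69 for NMD2 and -0.97 for NAM7, and POL12 by -0.23 for NMD2 and -0.54 for NAM7. By limma without the block 0 of the 5 genes passed in either pool, and 0 of 444 features did (0%), where the unadjusted p was under 0.05 for 2 of the 5 genes (NMD2) and for 3 (NAM7). With the block 4 of the 5 passed in each pool, where 239 features (53.8%) passed in the NMD2 pool and 225 (50.7%) in the NAM7 pool. POL30 rose, and POL2 and POL1 fell, in both pools with the block, with PRI2 passing in the NMD2 pool and POL12 in the NAM7 pool (adjusted p = 0.00948 in the blocked limma fit). The POL1 call in the NMD2 pool was lost when NMD2 replicate 2 was left out (adjusted p = 0.0767 with the block), and the POL12 call in the NAM7 pool when NAM7 replicate 2 or YEL068C replicate 2 was. Both comparisons use the same YEL068C arrays.

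**Figure D3:**
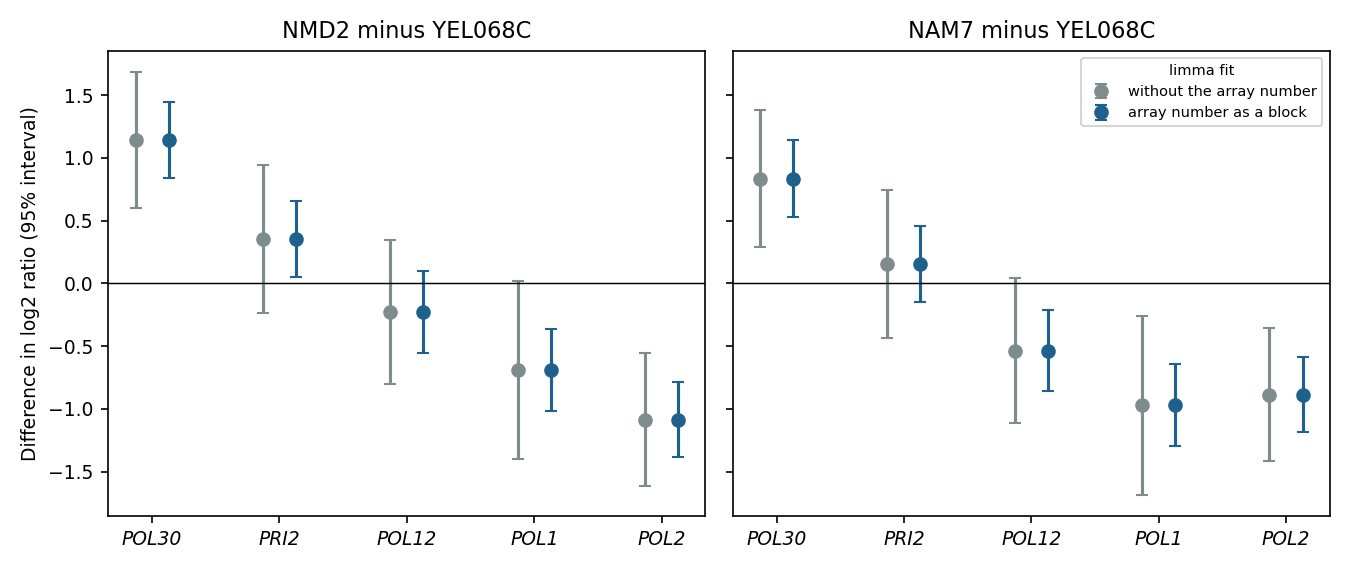
Difference in log2 RNA/DNA ratio of the NMD2 pool (left) and the NAM7 pool (right) from the YEL068C pool, with 95% intervals from limma, in the fit without the array number (grey) and with it as a block (blue). The point estimates are equal in both fits and run from 1.14 for POL30 to -1.09 for POL2 in the NMD2 pool, and the blocked intervals are narrower.

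A direct comparison asks whether loss of Upf2 and loss of Upf1 left these extended mRNAs at different levels. NMD2 minus NAM7 was 0.31 for POL30 and for POL12, 0.28 for POL1, 0.20 for PRI2 and -0.20 for POL2. The NMD2 arrays did not overlap the NAM7 arrays for any of the 5 genes, a separation seen for 76 of 444 features (17.1%). Even so 0 of the 5 genes and 0 of 444 features passed in limma, both without the block and with it. Without the block 0 of the 5 genes had an unadjusted p under 0.05, against 2 of 444 features. With the block POL30 had an unadjusted p of 0.0481 (adjusted p = 0.395 in limma), where 55 of 444 features were under 0.05. The 95% interval of the POL30 difference was -0.24 to 0.85 without the block and 0.003 to 0.61 with it, before any adjustment for the number of features.

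For 4 of the 5 genes, PRI2 being the exception, the 4 mutant arrays lay entirely to one side of both YEL068C arrays, as they did for 185 of 444 features (41.7%). The same differences were found within the sets of same-numbered arrays. For arrays numbered 1 the mean of both mutant pools minus the YEL068C pool was 0.87 for POL30, -0.90 for POL2, -0.66 for POL1, -0.31 for POL12 and 0.19 for PRI2. For arrays numbered 2 it was 1.11, -1.07, -1.0, -0.45 and 0.32 in the same order of genes, so each gene kept its direction and had the larger size there. The 2 arrays of a pool agreed closely for these genes. In 13 of 15 cases, 5 genes in 3 pools, they differed by less than the median feature of that pool (0.38 to 0.40), the exceptions being POL1 in the NAM7 and YEL068C pools.

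The coding lengths of the 5 genes run from 777 nucleotides for POL30 through 1587 for PRI2, 2118 for POL12 and 4407 for POL1 to 6669 for POL2, with 58 genes of the set shorter than POL30 and 6 longer than POL2. Coding length was taken as the gene length in the RefSeq annotation, which held 433 of the 444 features. Of these lengths 96.8% were multiples of 3, so some are not coding lengths. Length ranks, and the counts within length classes given below, are therefore approximate. In the mean of both mutant pools the differences followed this order without exception, at 0.99, 0.26, -0.38, -0.83 and -0.99. For NMD2 alone the order was the same, and for NAM7 alone POL1 (-0.97) lay below POL2 (-0.89). Longer genes in general had lower differences, so each of the 5 was also set against the genes of its length class.

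POL2, the seventh longest of the 433, had the lowest difference of all 52 genes over 3000 nucleotides, whose median was -0.60. This class has no upper limit and holds mostly genes shorter than POL2, and a trend with length inside it was not tested. In the NMD2 pool POL2 was again the lowest of its class, and in the NAM7 pool 8 genes lay below it. POL1 had 8 of those 52 genes below it in the mean. POL30 lay 0.56 above the median of the 106 genes with more than 500 and at most 1000 nucleotides (0.43), with 18 of them higher. PRI2 lay 0.36 above the median of the 80 genes with more than 1500 and at most 2000 nucleotides (-0.11), with 12 of them higher, and POL12 was within 0.05 of the median of its class (-0.34, 76 genes). In the NAM7 pool alone POL12 stood lower in its class, with 17 genes below it and 58 above. In the mean POL2 stood at the low edge of its class and POL30 and PRI2 in the upper part of theirs. These positions are a description, and their difference from the class was not tested. The position of PRI2 rests on a difference with a 95% interval of -0.25 to 0.76, which went to -0.067 under quantile normalization.

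**Figure D4:**
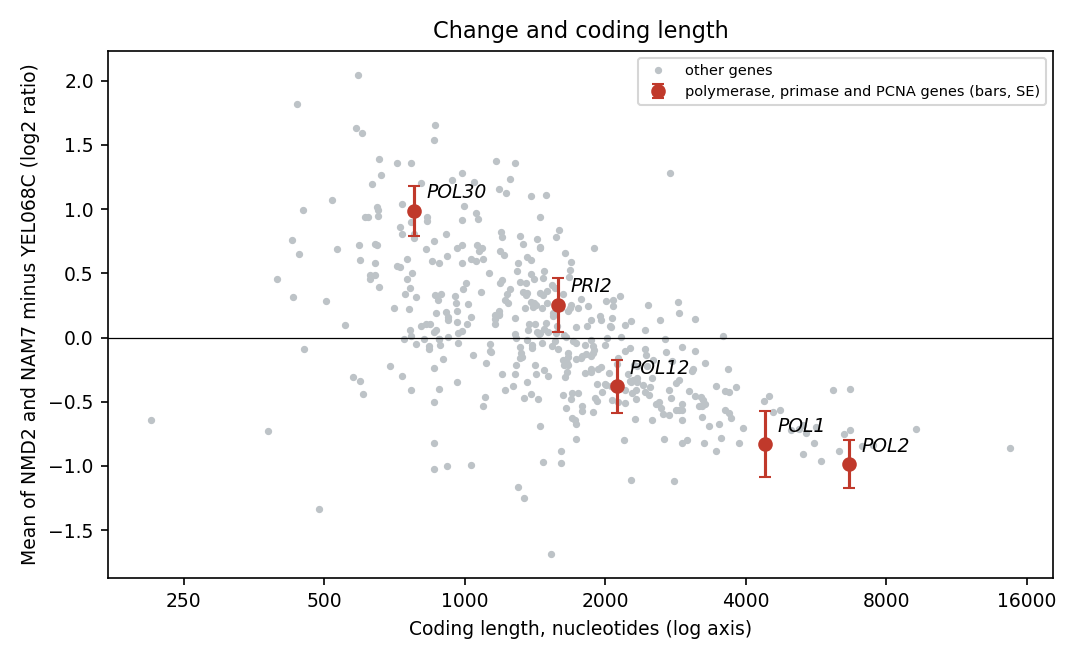
Mean of the NMD2 and NAM7 pools minus the YEL068C pool (vertical axis, log2 ratio) against coding length (horizontal log axis, nucleotides) for 433 genes; grey points are other genes, red points the polymerase, primase and PCNA genes with the SE of the fit without the block. The 5 genes descend from 0.99 at 777 nucleotides to -0.99 at 6669 nucleotides, and POL2 is the lowest of the genes over 3000 nucleotides.

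Other genes of DNA replication were listed by role, and 19 of 53 had values on all 6 arrays. They cover origin recognition and licensing, the helicase and its loading, checkpoint kinases, the clamp loader, single-strand binding, ligation and nuclease functions, and nucleotide supply. Their median difference in the mean of both mutant pools was -0.14, against -0.38 for the 5 polymerase, primase and PCNA genes and 0.00 for all features. By limma without the block 0 of the 19 passed (18 of 444 features, 4.05%), and with it 4 rose and 8 fell (266 of 444 features, 59.9%). The largest increases were those of the thymidylate kinase gene CDC8 (1.0, blocked SE 0.13, blocked adjusted p = 3.64e-05 in limma) and of RNR2, a ribonucleotide reductase small subunit gene (0.78, blocked adjusted p = 0.000122). The largest decreases were those of the checkpoint kinase gene MEC1 (-0.84, blocked adjusted p = 0.000111) and of DNA2 (-0.58, blocked adjusted p = 0.00206), whose product trims Okazaki fragment flaps. CDC8 has 651 and RNR2 1200 coding nucleotides, against 7107 for MEC1 and 4569 for DNA2. Of the 8 helicase and helicase-loading genes, 5 fell and 1 rose with the block, which called 30.2% of all features lower and 29.7% higher, and 0 of the 8 passed without it.

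Genes with the most similar course over the 6 arrays came from unrelated roles. For POL30 these were the kinetochore gene NSL1 (Pearson's r = 0.99 over 6 arrays) and the profilin gene PFY1 (0.99), for POL2 the spliceosomal helicase gene BRR2 (0.97) and the fatty acid desaturase gene OLE1 (0.97), and for POL1 the TORC2 subunit gene AVO1 (0.98) and the ribosome assembly gene RRP5 (0.97). The arrays share pools and numbers, and 34, 20 and 25 named genes had r over 0.9 with POL30, POL2 and POL1.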

How the data were processed

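The authors deposited one table of log2 ratios of the 2 dyes for 15743 probe rows, in which every column has a median of 0. How the ratios were scaled, their numerator and their base are not given in the sources used here. A value was present for 843 probes. The platform table names 1 gene for 827 of them, several for 0 and none for 16. The sign was turned as described, a gene's probes were averaged where they had values on every array, and the median over the resulting 444 features was subtracted from each array. The test was limma's (version 3.58.1, R 4.3.3), with lmFit and eBayes over all 6 arrays (1 term per pool, 3 residual degrees of freedom, two-sided, Benjamini-Hochberg over all features, threshold 0.05). The code was also run on simulated data whose noise was set below the spread of the arrays, so that run says little about error rates here. Replicate deviations correlated between pools with r = 0.89, 0.85 and 0.89, so the array numbers in the sample titles were treated as pairs and a fit with the number as a block is given wherever it changes a call. Scanner intensities were not analysed here. Exact permutation tests used scipy 1.17.1. Gene lists and alternatives were set with earlier results of these data known, as were the genes described. Besides the polymerase, primase and PCNA genes, the rule named the 2 largest increases and decreases of the replication list and the 2 genes most like each of the 3 most changed members. No sequences are printed, as none were held in the sources used here.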

Additional observations from a re-analysis of the deposited data

How the results depend on the processing

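The 2 calls in the mean of both mutant pools became 4 with the replicate block, and 12 of the 19 other replication genes passed with it against 0 without; the counts for the NMD2 and the NAM7 pool against YEL068C were 4 each with it and 0 without. No call between NMD2 and NAM7 was changed by the block, the count being 0 in both fits. Without centring, which moved the median of all features by -0.12, 0 of the 5 genes and 0 of 444 features passed in the mean. With features valued on at least 1 array per pool, 0 of the 5 genes and 0 of 587 features did. Without the block, the 2 calls in the mean were lost when 1 array was left out. Such fits leave 1 array in a pool, and fewer of all features passed in them too. With the block, an alternative added after the data were seen, it gave 3 to 4 calls in the mean (195 to 247 of 444 features), 2 to 3 in the NMD2 pool (124 to 235 features), 3 to 4 in the NAM7 pool (150 to 203 features), 0 between the mutant pools and 7, 8, 9, 10 or 11 of the other replication genes. Quantile normalization, 1 probe per gene and a variance trend kept the count of 2 in the mean (21, 18 and 18 of 444 features). A fit of only the pools compared left 0 of the 5 genes in each comparison of single pools. There 7 of 444 features passed for NMD2 against YEL068C, 0 for NAM7 against YEL068C and 0 for NMD2 against NAM7. POL30, POL2, POL1 and POL12 kept their directions under all alternatives run. PRI2 turned under quantile normalization, to -0.067 in the mean, -0.13 for NMD2 against YEL068C and -0.13 for NMD2 against NAM7. For NAM7 against YEL068C that normalization left PRI2 at 0.00, without a direction. That method gives features of equal rank equal values, and PRI2 held rank 2 on 5 arrays and rank 1 on the other.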

Other observations

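The cassette of a DAmP allele lies between its gene and the next one downstream, which was read from the RefSeq gene order and the strand letter of the systematic names. The neighbour lies on the same strand for POL1 (AVT4), POL2 (ORC5), POL12 (YBL036C) and PRI2 (MMO1), and runs towards the gene for POL30, whose neighbour RFC5 encodes a subunit of the loader of PCNA, and for PRI1 (EGH1). ORC5, of the origin recognition complex, was the only neighbour of a fitted gene with values on all 6 arrays. Its extended mRNA, from a strain of its own, differed by 0.03 between the mean of both mutant pools and the YEL068C pool (adjusted p = 0.963 in limma, 0.856 with the block), against -0.99 for POL2. These neighbours were looked up after the values had been seen.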
